A study of Mus musculus with 2 samples.

Results

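The outer corona is the outermost layer of the kinetochore, the protein assembly on each centromere that binds spindle microtubules. The 6 genes described here encode its core. They are Kntc1, Zw10 and Zwilch, the subunits of the RZZ complex, Spdl1, which encodes Spindly, and Cenpe and Cenpf. The members were chosen by name, and each was found by matching the Ensembl identifier of the deposited table to a mouse symbol. All 6 of the 6 genes were found among the 18364 genes that have counts, out of 36227 in the table. Of these 6, 5 passed the floor of a mean of 20 counts over the libraries, as did 10211 genes in all. Zwilch, with a mean of 18.5 counts, did not.

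RNA was sequenced from metaphase II (MII) oocytes, the mature eggs that wait for fertilisation, which ICR mice had ovulated naturally. The aged library came from females 12 months old and the young library from females 3 months old. Each age had 1 library made from 18 oocytes lysed together, 3 from each of 6 females, so neither animals nor oocytes can be told apart and no difference has a replicate check. The comparison asks how maternal ageing changes the messenger RNA of the mature egg, and every interval below covers counting error only, at 95% unless said otherwise. In such pools, less of a transcript in every oocyte and its loss from some of the oocytes cannot be told apart.

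When a chromosome is not yet held by microtubules, the RZZ complex assembles with Spindly into a broad, crescent-shaped meshwork on its kinetochore. The meshwork holds the Mad1-Mad2 complex, which keeps the spindle checkpoint signalling, and the motor dynein, which moves chromosomes poleward and later carries the corona away. Cenpe, a kinesin, tethers the corona to microtubules and drives chromosomes to the metaphase plate. Chromosome segregation errors become more frequent in the eggs of older females, and kinetochore genes are of interest in this tissue for that reason.

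The libraries held 18597656 counts for the aged and 19475110 for the young pool. The median gene above the floor had a log2 ratio of aged over young of 0.43 with scaling to the library totals, a fold of 1.34, so a value near that size is where the middle of all genes lay. All 10 of 10 oocyte markers had counts in both libraries, with sums of 1698685 counts in the aged and 3192050 in the young library, most of them from Gdf9 and H1foo, which had fewer counts in the aged library, while Nlrp5, Dppa3 and Zp3 had more. The 16 markers of cumulus and granulosa cells, which surround the oocyte, summed to 1100 counts in the aged and 566 in the young library. Cyp19a1 alone gave 1056 of these in the aged and 436 in the young library, while the other 15 summed to 44 in the aged and 130 in the young library, with Vim at 0 in the aged and 51 in the young library. Of the 16 markers 8 in the aged and 7 in the young library were at 0 or had no value. Among them Foxl2 and Amh had no value in either library. The 6 markers of other somatic cells summed to 730 counts in the aged and 412 in the young library, of which Pecam1 gave 723 in the aged and 381 in the young library. In the other somatic list, 4 of 6 markers were at 0 or had no value in the aged library, with Ptprc and Krt18 at 0. The 2 such markers in the young library, Hbb-b1 and Lyz2, had no value. The part of other cells in the results below was not tested.

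The promoters of the members are shown because the genes of this structure are transcribed with the cell cycle, and because shared letters near the start are a property that the choice of members did not use. They describe the genes, and their part in the difference between the libraries was not tested. RefSeq promoters of build GRCm38.p6 matched 5 of the 6 members. The promoter of Zw10 is not printed, since the bases closest to its start held neither motif below. Each line gives 100 bases before to 50 bases after the annotated start, 5′ to 3′ on the gene's strand. Capitals mark TTTGAA, the core of the cell cycle genes homology region (CHR) bound by the DREAM and MuvB complexes, and CCAAT, the box bound by NF-Y, each on either strand.
Kntc1 (chr5:123749626-123749775, plus strand): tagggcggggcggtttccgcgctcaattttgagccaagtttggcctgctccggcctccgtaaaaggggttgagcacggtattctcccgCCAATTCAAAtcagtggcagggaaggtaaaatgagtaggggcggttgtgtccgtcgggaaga
Spdl1 (chr11:34833592-34833741, minus strand): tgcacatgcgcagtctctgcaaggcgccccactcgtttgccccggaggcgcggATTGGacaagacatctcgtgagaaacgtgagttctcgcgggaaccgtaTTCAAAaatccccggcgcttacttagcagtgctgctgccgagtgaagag
Cenpf (chr1:189688037-189688186, minus strand): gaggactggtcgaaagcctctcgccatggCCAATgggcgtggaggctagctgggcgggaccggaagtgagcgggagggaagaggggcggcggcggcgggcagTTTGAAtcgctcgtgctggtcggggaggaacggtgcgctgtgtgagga
Cenpe (chr3:135212463-135212612, plus strand): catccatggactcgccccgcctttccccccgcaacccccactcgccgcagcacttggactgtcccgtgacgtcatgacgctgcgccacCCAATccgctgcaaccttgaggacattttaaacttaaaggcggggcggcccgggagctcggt

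TTTGAA lay within 20 bases of the start in 3 of 5 promoters. It ran from base −8 to −3 in Kntc1, from 2 to 7 in Spdl1 and from 3 to 8 in Cenpf, counted from 1 at the start with no base 0. Of 32851 promoters of the same length, 1.95% held TTTGAA in that 40-base window on either strand and 17.9% anywhere in the 300 bases. Zw10 held it further upstream, from base −148 to −143, and Cenpe did not hold these letters. CCAAT was found in 4 of the 5 promoters, all but Zw10, against 37.4% of all promoters. In Kntc1 the capitals are 1 run because CCAAT, on the gene's strand, and TTTGAA, on the other, overlap there by 1 base. These matches are letters in a window and say nothing about binding.

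All 6 outer corona transcripts had more CPM in the aged library, from 1.12-fold for Spdl1 to 2.08-fold for Kntc1, but with each of 4 other scalings Spdl1 and Zw10 came out slightly lower, and after reduction for transcript length and GC content only Kntc1 of 5 stayed above 0. Relative to the median gene the set split, with Kntc1, Cenpe and Cenpf above it and Zw10 and Spdl1 below it among the genes above the floor. On that scale the counting intervals of Zw10 (0.701 to 1.11) and Spdl1 (0.697 to 1.01) include equality. Of the 5, only Kntc1 passed 2-fold, where 27.9% of all genes that passed the floor reached 2-fold in this direction. None of the 5 was lower by 2-fold, where 10.6% of all genes were. The share of members past 2-fold is therefore near the background and is not a result about the outer corona. Relative to the median gene, none of the 5 was 2-fold higher or lower, against backgrounds of 16.0% and 17.3%.

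Kntc1 (ENSMUSG00000029414, chromosome 5) encodes Rod, the large scaffold subunit of RZZ. It had 791 counts in the aged and 398 in the young library, or 42.5 CPM (counting interval 39.6 to 45.6) against 20.4 CPM (18.5 to 22.5). The intervals of the 2 libraries did not overlap. The ratio was 2.08-fold (1.84 to 2.35), an interval that includes 2-fold, and 73.9% of all genes above the floor had a lower ratio. Relative to the median gene Kntc1 was 1.55-fold higher (1.37 to 1.75).

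Zw10 (ENSMUSG00000032264, chromosome 9) encodes the RZZ subunit that links the complex to dynein and also serves in a membrane tether at the endoplasmic reticulum. It had 163 counts in the aged and 144 in the young library, or 8.76 CPM (7.47 to 10.2) against 7.39 CPM (6.24 to 8.71). These intervals overlapped. The ratio of 1.19-fold (0.941 to 1.49) was not distinguishable from equality at this depth, and it became 0.883-fold (0.701 to 1.11) relative to the median gene.

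Zwilch (ENSMUSG00000032400, chromosome 9), the third RZZ subunit, was the scarcest member, with 23 counts in the aged and 14 in the young library. Its level was 1.24 CPM (0.784 to 1.86) in the aged and 0.719 CPM (0.393 to 1.21) in the young library. The ratio of 1.72-fold had an interval from 0.848 to 3.62, so at this depth neither equality nor a difference past 2-fold could be told from it. Zwilch is therefore given here as a value and enters no count of genes above the floor.

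Spdl1 (ENSMUSG00000069910, chromosome 11) encodes Spindly, the farnesylated adaptor that joins RZZ to dynein and its cofactor dynactin. It had 248 counts in the aged and 231 in the young library, or 13.3 CPM (11.7 to 15.1) against 11.9 CPM (10.4 to 13.5). The intervals overlapped for most of their width. The ratio was 1.12-fold (0.936 to 1.35), with 40.02% of all genes lower, and 0.837-fold (0.697 to 1.01) relative to the median gene. Spdl1 had the lowest ratio of the 6.

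Cenpe (ENSMUSG00000045328, chromosome 3), the plus-end directed kinesin of the corona, was by far the most abundant member. It had 4881 counts in the aged and 2766 in the young library, or 262 CPM (255 to 270) against 142 CPM (137 to 147). The intervals lay well apart. The ratio was 1.85-fold (1.76 to 1.94), below 2-fold over its whole interval, and 1.38-fold (1.31 to 1.44) relative to the median gene. In order of counts Cenpe stood at place 659 in the aged and 971 in the young library among 18364 genes.

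Cenpf (ENSMUSG00000026605, chromosome 1) encodes a very long coiled-coil protein that binds microtubules and the dynein regulators Nde1 and Ndel1. It had 1242 counts in the aged and 780 in the young library, or 66.8 CPM (63.1 to 70.6) against 40.1 CPM (37.3 to 43.0). Here too the intervals did not overlap. The ratio was 1.67-fold (1.52 to 1.83), and 1.24-fold (1.13 to 1.36) relative to the median gene. Together the 6 genes held 7348 counts in the aged and 4333 in the young library, a ratio of 1.78-fold (1.71 to 1.84). Relative to the median gene that sum was 1.32-fold. Without Cenpe the other 5 gave 1.65-fold (1.55 to 1.76), or 1.23-fold relative to the median gene.

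**Figure D1:**
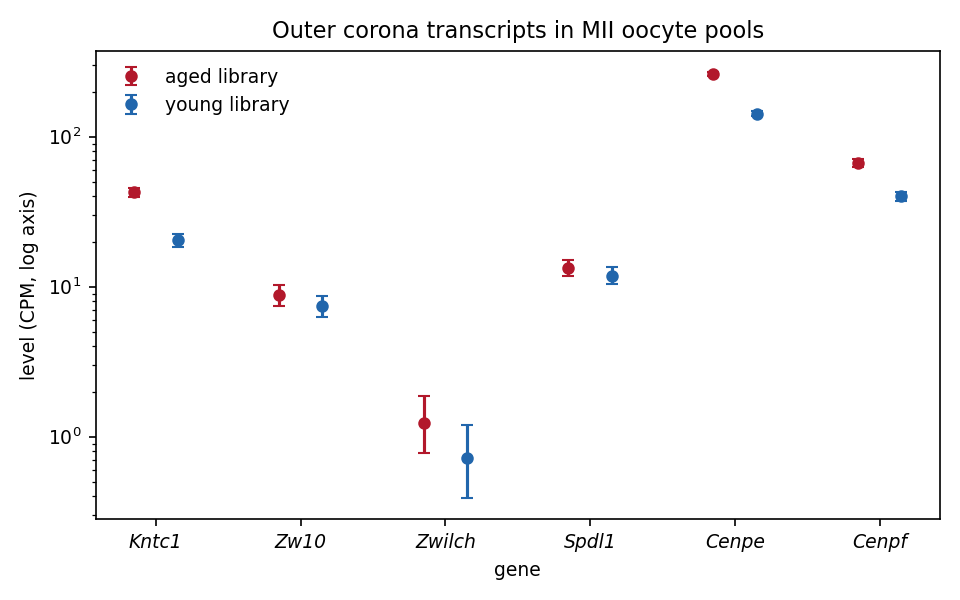
Level of each outer corona gene in CPM on a log axis, with the aged library left of the young library for each gene; points are 1 library each and bars are 95% counting intervals. The bars lie apart for Kntc1, Cenpe and Cenpf and overlap for Zw10, Zwilch and Spdl1.

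**Figure D2:**
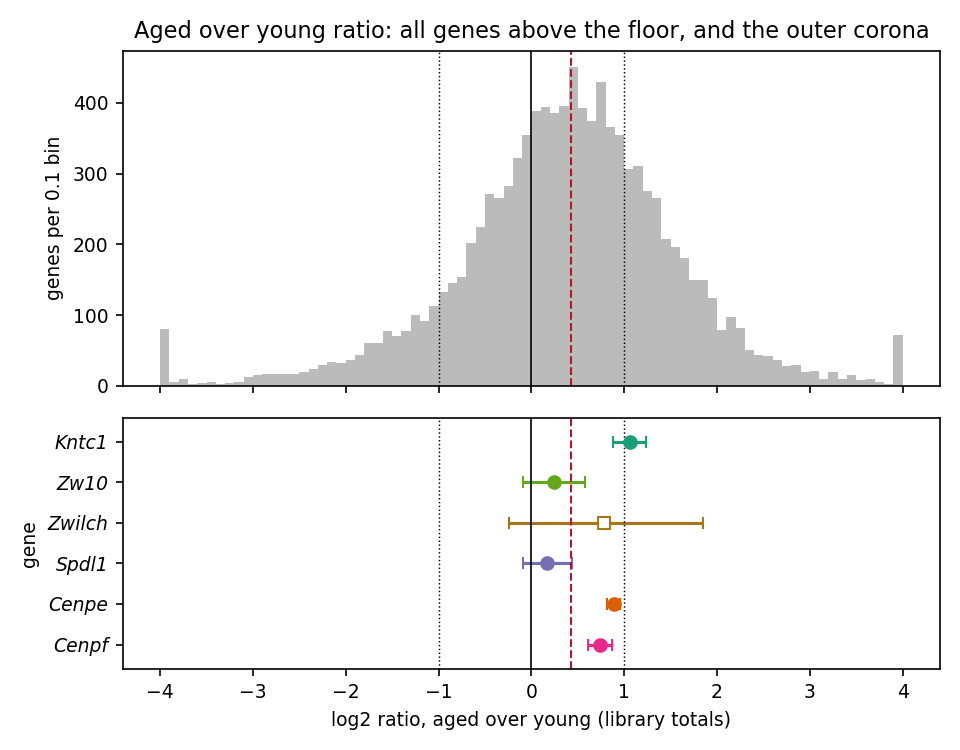
Upper panel, number of the 10211 genes above the floor in bins of 0.1 of the log2 ratio of aged over young, with ratios beyond 4 in either direction put into the end bins. Lower panel, the ratio of each outer corona gene with its 95% counting interval (open square, Zwilch, below the floor), where the solid line is equality, the dotted lines are 2-fold and the dashed line is the median gene at 0.43, which the 6 genes straddle.

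The intervals of the libraries lay apart, higher in the aged one, for 3 of the 5 genes above the floor, and 49.5% of all genes above the floor did so in that direction. Such intervals narrow as counts grow, and the 3 genes are the most counted members. The plot of ratios shows Kntc1, Cenpe and Cenpf above Zw10 and Spdl1. The ratio of one member to another within a library is the same under any scaling of whole libraries, but not under the reduction for length and GC content given below, which leaves Cenpe and Cenpf below 0 with Zw10 and Spdl1. Each of the 15 pairs of members was compared by an exact conditional odds ratio of their counts, with intervals widened for 15 comparisons (Bonferroni). The interval lay off equality for 5 of the 15 pairs. The ratios of all genes above the floor were spread widely, with quartiles of −0.28 and 1.09 on the log2 scale, so differences of this size between genes are common and not particular to this set. The fold of Kntc1 was 1.76 times that of its complex partner Zw10 (1.19 to 2.59) and 1.85 times that of Spdl1 (1.33 to 2.57). The fold of Cenpe was 1.56 times that of Zw10 (1.10 to 2.21) and 1.64 times that of Spdl1 (1.24 to 2.18), and that of Cenpf was 1.48 times that of Spdl1 (1.09 to 2.01). Between Cenpf and Zw10 the value was 1.41, with an interval that reached equality (0.971 to 2.03).

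Among Kntc1, Cenpe and Cenpf no pair was told apart at this depth. The widest of their intervals, for Kntc1 against Cenpf, ran from 0.995 to 1.57 around 1.25. Zw10 and Spdl1 could not be told apart either, at 1.05 (0.679 to 1.64). All 5 pairs with Zwilch had intervals that include equality, the narrowest reaching from 0.352 to 3.01 for Cenpe against Zwilch, so its place in the split is not known. These intervals compare the reads of 2 libraries and do not include any spread between animals. They also take reads as independent, which PCR without molecular identifiers does not ensure, so they can be too narrow.

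The make-up of the RZZ messages differed accordingly. Kntc1 gave 81.0% (78.4 to 83.4, Clopper-Pearson interval) of the counts of the 3 RZZ genes in the aged library and 71.6% (67.6 to 75.3) in the young library. Zw10 gave 16.7% (14.4 to 19.2) in the aged and 25.9% (22.3 to 29.8) in the young library, and Zwilch 2.35% (1.50 to 3.51) in the aged and 2.52% (1.38 to 4.19) in the young library. The intervals of Kntc1 and of Zw10 did not overlap between the libraries, while those of Zwilch did. As Zwilch holds few of these counts, the shares of Kntc1 and Zw10 restate the contrast of that pair given above. Their intervals are not widened for several comparisons. Among all genes above the floor, CPM intervals lay apart for 49.5% higher and 21.1% lower in the aged library, so such gaps are common. Over all 6 genes, Spdl1 made up 3.38% (2.97 to 3.81) of the counts in the aged and 5.33% (4.68 to 6.04) in the young library. Cenpe made up 66.4% (65.3 to 67.5) in the aged library and 63.8% (62.4 to 65.3) in the young one.

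Levels of different genes are compared here per length, as CPM divided by the kilobases of the longest coding transcript. Cenpe led in both libraries, with 33.2 CPM per kb in the aged and 18.0 CPM per kb in the young library, and its level was 5.43 times the next in the aged library (5.04 to 5.86) and 3.79 times in the young (3.31 to 4.36). Kntc1 and Cenpf, at 6.11 and 6.00 CPM per kb in the aged library, were not told apart (ratio of levels 1.02, 0.930 to 1.11), and neither were Cenpf and Spdl1, at 5.32 CPM per kb (1.13, 0.983 to 1.30). In the young library the order in the middle was another. Spdl1 was next to Cenpe with 4.74 CPM per kb, 1.32 times the level of Cenpf (1.13 to 1.53), which at 3.60 was 1.23 times that of Kntc1 (1.08 to 1.39). Kntc1, at 2.94 CPM per kb, and Zw10, at 2.58, were not told apart there (1.14, 0.937 to 1.39), whereas in the aged library Zw10, at 3.06, lay below Spdl1, whose level was 1.74 times as high (1.42 to 2.13).

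Zwilch closed the order in both libraries, at 0.418 CPM per kb in the aged and 0.243 in the young library. The level of Zw10 was 7.32 times that of Zwilch in the aged (4.71 to 11.9) and 10.6 times in the young library (6.13 to 19.9). The proteins of RZZ assemble in equal numbers, and in both pools the message of Zwilch, itself below the floor, was below those of the other subunits. Proteins were not measured here, and levels of messages do not give their numbers. The cDNA was primed from the poly(A) tail, and how evenly reads cover long transcripts, on which the per-length scale rests, was not tested.

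**Figure D3:**
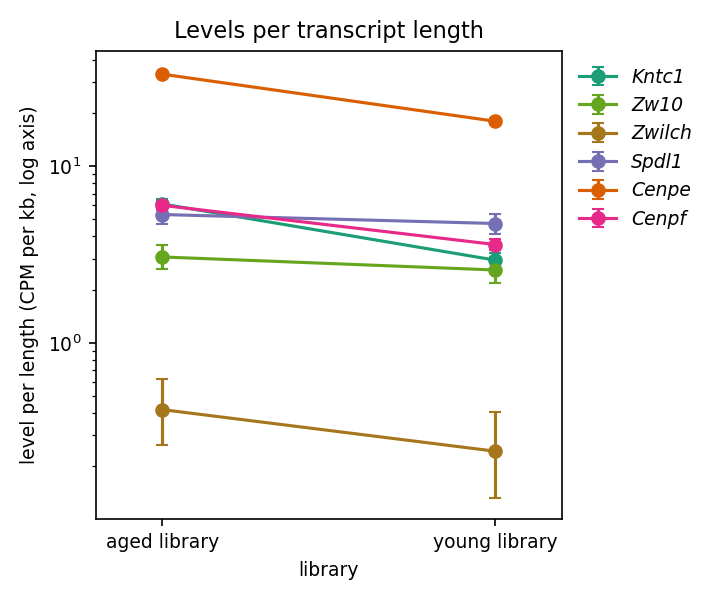
Level per length, in CPM per kb on a log axis, of each outer corona gene in the aged library on the left and the young library on the right, with 95% counting intervals; lines join the values of a gene. Spdl1 stands at place 2 in the young library and at place 4 in the aged one, where its interval overlaps those of Cenpf and Kntc1. Cenpe and Zwilch hold the ends of the order in both libraries.

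Among the 5 genes above the floor, those higher relative to the median gene were also those with the longest transcripts. Cenpf (11130 bases), Cenpe (7910 bases) and Kntc1 (6961 bases) fall in the longest decile of genes, whose median log2 ratio was 0.70. Zw10 (2863 bases) and Spdl1 (2505 bases) fall in deciles with medians of 0.44 and 0.38. All 6 are low to middling in GC content, from 42.9% in Cenpe to 48.1% in Zw10, and the GC deciles that hold them had medians of 0.87 for Cenpe, Cenpf and Zwilch, 0.76 for Spdl1, 0.67 for Kntc1 and 0.53 for Zw10. Beside these, the log2 ratios were 0.89 for Cenpe, 0.74 for Cenpf, 0.17 for Spdl1, 1.06 for Kntc1 and 0.25 for Zw10.

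When each ratio was reduced by the median of the genes of like length and GC content, the value of Kntc1 was 0.36, that of Cenpe −0.055, that of Cenpf −0.20, that of Zw10 −0.27 and that of Spdl1 −0.55. Kntc1 was then the 1 member of 5 above 0. After this reduction Cenpe and Cenpf, which lay above the median gene before it, were below the genes of like length and composition, Cenpe by less than its counting interval. Zwilch, below the floor, has no such value.

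**Figure D4:**
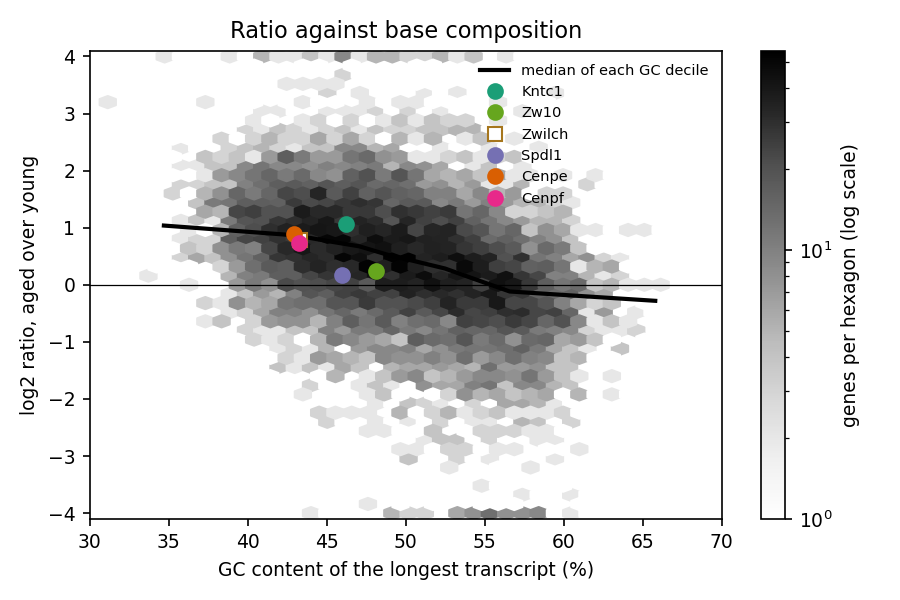
Log2 ratio of aged over young against the GC content of the longest transcript in percent, for the genes above the floor (grey hexagons, ratios beyond 4 drawn at 4), with the median of each GC decile as a line at the middle of the decile's range, and the outer corona genes as points (open square, Zwilch, partly covered by Cenpf). Cenpe and Cenpf lie close to the line, Kntc1 above it and Spdl1 below it.

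The members differ in how safely their reads can be assigned. Zw10, Kntc1 and Spdl1 shared no stretch of 100 bases or more at 90% identity with a transcript of another gene in GENCODE release M21. Cenpe shared such stretches with 3 other genes, between bases 5623 and 7538 of its 7910, the longest being 851 bases in Gm8669. Reads from that part of Cenpe are therefore uncertain, and no counts were found for Gm8669. The last bases of the Cenpf transcript, from position 10922 to its end at 11130, matched transcripts of 494 other genes, the longest match being 207 bases in Zmynd8, so reads from its 3′ end are uncertain. Zwilch overlaps Lctl on the opposite strand, and Lctl had 0 counts in the aged and 7 in the young library. No source used here says how reads that map to several places were treated.

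Over these 2 libraries, the genes above the floor with values nearest to each member's were read off as a description. Zwilch itself lies below the floor, so genes at its own level were not searched. The distance is that between the log2 CPM values of the libraries. Lrch3 had the same counts as Zw10, 163 in the aged and 144 in the young library. Prpf6 lay nearest to Cenpe, with 4956 counts in the aged and 2820 in the young library and a distance of 0.04. Golph3l was nearest to Cenpf (0.03), Cbfa2t3 to Kntc1 (0.04) and Cacna1i to Spdl1 (0.02). For Zwilch it was Bub1, a checkpoint kinase gene, with 25 counts in the aged and 15 in the young library at a distance of 0.16. With 2 values per gene, many genes lie that close, 16 of them within 0.1 of Zw10 and 18 within 0.1 of Spdl1.

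Dynein, its cofactor dynactin and their regulators are the motor that RZZ and Spindly bring to the kinetochore. Of 26 genes in that list, 20 were above the floor, of which 3 lay 2-fold or more higher and 2 lower in the aged library, beside 27.9% and 10.6% of all genes, with a median log2 ratio of 0.36 against 0.43 over all genes. Relative to the median gene, 2 were higher and 3 lower, beside 16.0% and 17.3% of all genes. Neither count stands out from these shares. Pafah1b1, which encodes the dynein regulator Lis1, had 3357 counts in the aged and 770 in the young library, 4.57-fold higher (4.22 to 4.94). Capza2, a capping subunit of dynactin, had 779 counts in the aged and 224 in the young library, 3.64-fold higher (3.13 to 4.24). The 2 lower genes, named because they are so few, were Nde1, with 335 counts in the aged and 783 in the young library (0.448-fold), and the dynein light chain gene Dynll1, with 441 counts in the aged and 981 in the young library (0.471-fold). These genes work in all transport by dynein and not at kinetochores alone.

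The list of docking and checkpoint partners holds the proteins on which the corona is built and those it carries. Of its 10 genes 9 were above the floor, 2 lay 2-fold or more higher and 1 lower. The median was 0.80, which is 0.38 relative to the median gene and 0.012 after reduction for length and GC content. The 22.2% that were higher are near the 27.9% of all genes, and the 1 lower of 9 stands beside 10.6% of all genes. Ttk, the checkpoint kinase Mps1 that promotes corona assembly, had 315 counts in the aged and 136 in the young library, 2.43-fold higher (1.98 to 2.99), and Bub3 had 2638 counts in the aged and 1164 in the young library, 2.37-fold higher (2.21 to 2.54). Relative to the median gene none of the 9 was 2-fold higher and 1 was 2-fold lower, beside 16.0% and 17.3% of all genes. The gene at least 2-fold lower, by either measure, was Bub1b, with 12526 counts in the aged and 28659 in the young library. It was named because it is the single member past 2-fold in that direction.

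The proteins of Spdl1, Cenpe and Cenpf carry a farnesyl lipid, known from human cells, and Spindly needs it to reach kinetochores. Of the 5 genes of that list, all above the floor, 2 lay 2-fold or more higher and 1 lower, with a median of 0.45. Beside them stand 27.9% and 10.6% of all genes, and a list of 5 is too short to set against these shares. After centring on the median gene, 1 was higher and 1 lower, beside 16.0% and 17.3% of all genes. Zmpste24, a protease that trims farnesylated proteins, had 303 counts in the aged and 113 in the young library, 2.81-fold higher (2.26 to 3.52). Fnta, the alpha subunit of farnesyltransferase, had 3280 counts in the aged and 1358 in the young library, 2.53-fold higher (2.37 to 2.70). The member at least 2-fold lower was Icmt, which methylates farnesylated ends, with 2353 counts in the aged and 5762 in the young library. It was chosen after its values were seen.

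Zw10 also belongs to the NRZ tether of the endoplasmic reticulum, with Rint1 and Nbas. Of 8 genes of that tether and its SNARE partners, 7 were above the floor, 2 at least 2-fold higher and 1 lower, with a median of 0.34. The share of 28.6% higher is near the 27.9% of all genes, and the 1 lower of 7 stands beside 10.6%. Relative to the median gene 1 was higher and 1 lower, beside 16.0% and 17.3% of all genes. Use1, a SNARE gene, had 21 counts in the aged and 125 in the young library, a fold of 0.176 (0.105 to 0.281). Stx18, another SNARE gene, had 154 counts in the aged and 50 in the young library, 3.23-fold higher (2.33 to 4.53). The members of this list therefore lay on both sides of Zw10.

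Partners of Cenpe and Cenpf on microtubules and mitochondria, such as the Clasp proteins and the Miro gene Rhot1, gave 2 of 7 genes at least 2-fold higher and none lower, with a median of 0.24. This share, 28.6%, is also near that of all genes, 27.9%, while 10.6% of all genes were lower. Clip1, which tracks growing microtubule ends, had 215 counts in the aged and 86 in the young library, 2.62-fold higher (2.03 to 3.40). Clasp2, which steadies microtubules at kinetochores, had 1008 counts in the aged and 433 in the young library, 2.44-fold higher (2.18 to 2.73). Relative to the median gene none of the 7 was 2-fold higher or lower, beside 16.0% and 17.3% of all genes. Of 6 other kinesin genes that position chromosomes, 5 were above the floor and none differed by 2-fold under library totals, beside 27.9% of all genes higher and 10.6% lower, with a median of 0.69. Kif22, the chromokinesin Kid, had 728 counts in the aged and 451 in the young library, 1.69-fold (1.50 to 1.91). Kif18b had 65 counts in the aged and 115 in the young library, a fold of 0.592 (0.430 to 0.809). It was the 1 member of 5 at least 2-fold lower relative to the median gene, beside 17.3% of all genes. After reduction for length and GC content, the list medians were −0.42 for these kinesins and −0.53 for the Cenpe and Cenpf partners. They were −0.029 for dynein and dynactin, 0.39 for farnesylation and −0.012 for the NRZ tether.

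**Figure D5:**
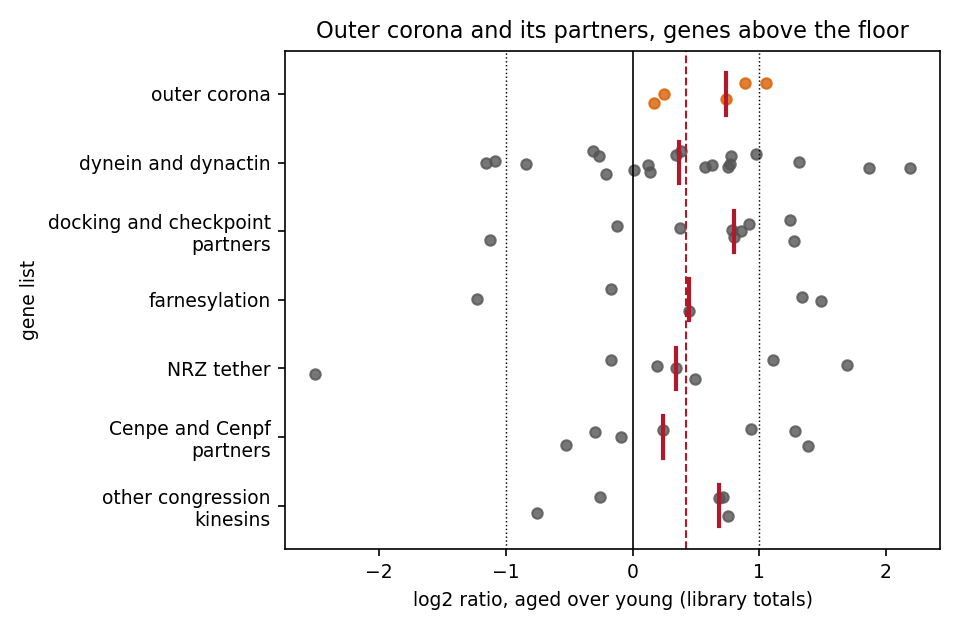
Log2 ratio of aged over young for each gene above the floor in the outer corona (orange, top row) and in 6 lists of its partners (grey), with red bars at each list's median. The solid line is equality, the dotted lines are 2-fold and the dashed line is the median gene at 0.43; the 5 outer corona genes span 0.17 to 1.06, and dynein and dynactin genes reach beyond 2-fold on both sides.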

How the data were processed

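Per the labels' protocols, the lysed oocytes' mRNA was copied from an oligo(dT) primer, tailed, amplified by 18 and then 14 PCR cycles and sequenced on a SOLiD instrument. No molecular identifiers were used, so reads are not independent molecules. Per the submitters' processing notes the build was mm9. No source used here names the aligner, the counting program or the use of strand. The values are the authors' deposited raw counts per gene. The authors' deposited scaled log2 fold changes (young over aged) matched the recomputed ones within 1e-06, with the sign turned, for genes with counts in both libraries.

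A GENCODE M21 symbol was found for 85.5% of the rows and for 93.7% of those with counts. That annotation is of another build, so it gave lengths, GC content and overlaps but no coordinates for counts. CPM are counts scaled to the library total. The floor was a mean of 20 counts, and 3 counts replaced a 0. With 1 library per age no test was possible, and a gene was called at 2-fold or more. Intervals are exact, at 95%, those between members being widened over their 15 pairs. Reduction for composition subtracted the median ratio of 9902 genes binned by length (10 bins) and GC content (10 bins). Named genes are all members, the 2 genes of each partner list furthest from equality, and the nearest gene above the floor to each member. Bub1b, Icmt, Nde1 and Dynll1 were named after their values were seen. The members and lists were chosen with earlier results of these data known. Scripts were tested on simulated data. Python 3.11.15 (numpy 2.4.6, scipy 1.17.1, pandas 2.3.3), BLAST and, for trimmed mean (TMM) factors, edgeR 4.0.16 in R 4.3.3 were used.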

Additional observations from a re-analysis of the deposited data

How the results depend on the processing

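Scaling decides the call of Kntc1. The number of outer corona genes at least 2-fold higher was 1 with library totals, with 5 added counts, with no floor and with a floor of 100, and 0 with the other 4 scalings and after reduction for length and GC content, while 0 were lower in each. The scalings shifted all log2 ratios by −0.37 (TMM), −0.36 (median-of-ratios size factors), −0.43 (centring on the median gene) and −0.29 (totals without the 100 most abundant genes). In that order, the sign turned for Zw10, to −0.13, −0.11, −0.18 and −0.041, and for Spdl1, to −0.21, −0.19, −0.26 and −0.12. After reduction for length and GC content the values of Zw10 (−0.27), Spdl1 (−0.55), Cenpe (−0.055) and Cenpf (−0.20) were below 0. Kntc1 stayed above 0 in all 8 alternatives, from 0.36 to 1.06, and Zwilch in the 7 that gave it a value. The count of all genes past 2-fold was 2844 higher and 1081 lower with library totals (72.5% higher), 1757 and 1668 with TMM (51.3%), 1802 and 1633 with median-of-ratios factors (52.5%), 1633 and 1766 with centring (48.0%), and 1991 and 1489 without the 100 most abundant genes (57.2%). A floor of 100 mean counts gave 1727 and 496, no floor 5483 and 3370, and the reduction for length and GC content 1347 and 1475. No library can be left out with 1 per age. No paired analysis was possible because each age has a single library. Depth limits Zwilch most, whose 23 counts in the aged and 14 in the young library allow a ratio from 0.848-fold to 3.62-fold.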
